A study of Danio rerio with 8 samples.

Results

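Cyclins, cyclin-dependent kinases (CDKs), Cdc25 and the retinoblastoma (Rb) and E2F factors that act with them were examined in dome-stage zebrafish embryos treated with a drug against fibroblast growth factor (FGF) receptors. The members were all genes whose single, lower-cased name in the expression table fits a set name pattern. The pattern covers cyclin, CDK, Cdc25, Cks, Wee1, Myt1, Rb family, E2F and DP genes, with ccng1 left out. It does not reach every cyclin name, so cyclin genes such as CCNJL, CCNYL1 and ccny were not members. By this rule 70 of the 33843 loci were members, among them 2 loci named cdk16, and 58 of the 70 had been tested by the authors. The rule works on names alone, so 8 of the 70 carry a CDK in their name but encode associated proteins or Cdk5 activators, neither kinases nor cyclins. They are grouped here as CDK-binding and Cdk5 activator genes. The row that joins wee1 with znf143b carries 2 names and was therefore not a member. Its pooled value was 57.7 FPKM in SU5402 embryos and 49.3 FPKM in control embryos, with no call.

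The RNA-seq groups were embryos kept in 20 µM SU5402, an inhibitor of FGF receptor kinase activity, and control embryos kept in the same volume of its solvent DMSO. Both treatments began at the 2-cell stage and RNA of whole embryos was taken at dome, a late blastula stage. Each group had 2 samples, and the labels name no strain or allele. They do not state that these were separate clutches, so any spread between samples may be technical. The settings of the authors' test are not known, so how far their p-values reflect that spread is unknown too. The authors pooled both samples into 1 FPKM value (fragments per kilobase, scaled to library size) per locus and condition, so no value below has a replicate error, and depth per sample is unknown. SU5402 is a small molecule given to the whole embryo, so the comparison is of the drug and not of the loss of 1 receptor. The 4 samples for ATAC-seq, an assay of open chromatin, were not used here. Of 7 blastoderm markers found, all reached 1 FPKM in both conditions. They summed to 1855 FPKM in SU5402 embryos and 1939 FPKM in control embryos, and 1 of them, oep, was called lower in the authors' deposited table (87.3 FPKM in SU5402 and 161 FPKM in control embryos). Of 9 markers of later differentiated cells 1 did so in SU5402 embryos and 0 in control embryos. Markers of the extra-embryonic layers were present as well. Enveloping layer markers summed to 347 FPKM in SU5402 embryos and 292 FPKM in control embryos. Of these 6, cldnf was not tested and 2 were called, in opposite directions, beside 5.64% of all tested loci called. The gene krt8 was higher (106 FPKM in SU5402 and 69.2 FPKM in control embryos) and cldne lower (20.4 FPKM in SU5402 and 34.0 FPKM in control embryos). Yolk syncytial layer markers summed to 773 FPKM in SU5402 embryos and 448 FPKM in control embryos. Of these 7, apoa1a and apoa1b were not tested and 1 was called. That was the apolipoprotein gene apoeb, higher at 661 FPKM in SU5402 embryos against 328 FPKM in control embryos, while the defining gene mxtx2 had 94.5 FPKM in SU5402 embryos and 104 FPKM in control embryos, with no call. The part of these layers in the results below was not tested.

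The CDKs of the cell cycle phosphorylate proteins that start DNA replication and mitosis, and each needs a cyclin partner whose level rises and falls through the cycle. D-type cyclins with Cdk4 or Cdk6 and E-type cyclins with Cdk2 inactivate Rb proteins and release E2F factors for entry into S phase, while A- and B-type cyclins carry the cell through S phase and mitosis. The first cleavages of the fish embryo are fast, lack gap phases and run on maternal cyclin transcripts. The cycle lengthens around the onset of zygotic transcription, shortly before dome. In many cell types growth factors acting through Ras and ERK raise transcription of the cyclin D1 gene.

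By the authors' calls, the cyclin genes ccnd1, ccne2 and ccng2 fell in SU5402 embryos, and ccnl1a and ccnt2b rose. Of these 5, only ccnd1 and ccne2 passed a stricter adjustment of the authors' p-values over all tested loci. No CDK gene, no A- or B-type cyclin gene and no Rb, E2F or DP gene was called. By the authors' deposited table, which calls a locus at a q of at most 0.05, 5 of the 58 tested members were called (8.62%), against 5.64% of all 12757 tested loci. Of the 58, 3 were called lower, beside 2.06% of all tested loci. The 2 of 58 called higher are about the share of all tested loci called higher, 3.58%. All 5 were among the 23 tested members that are cyclin genes, and 0 of the 15 tested CDK genes were called. With 5.64% of all tested loci called, the lack of a call among 15 genes does not set the CDK genes apart. Outside the member list, the tested cyclin genes ccng1, CCNJL and CCNYL1 were not called. The difference between cyclin and CDK genes was not tested. Among the members that were not called, 3 had an authors' p of at most 0.05, namely cdk6, ccnc and e2f7. The median log2 change of the tested members was -0.0017, with 30 below 0 and 28 above, and that of all tested loci was 0.044. Changes within 0.5 on the log2 scale were found for 84.5% of the tested members and 74.1% of all tested loci. These shares are not matched for level: the median in control embryos was 19.0 FPKM for the tested members and 9.94 FPKM for all tested loci.

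**Figure D1:**
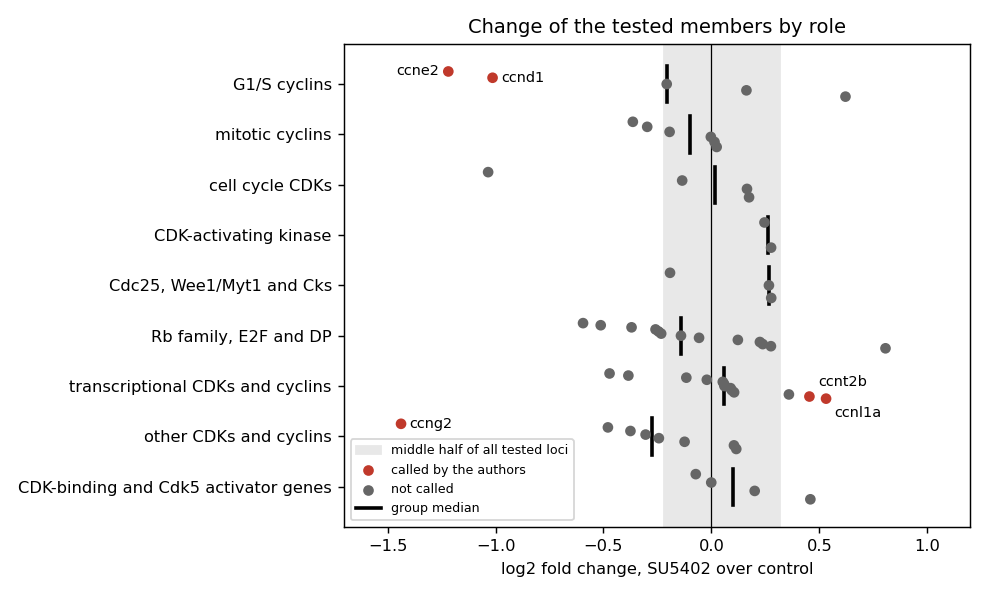
Log2 fold change of SU5402 over control for the 58 tested members, by role. Each point is 1 gene, red where the authors called it, the black bar is the group's median, and the grey band spans the middle 50% of all tested loci (-0.22 to 0.32). The called falls ccnd1 (-1.01), ccne2 (-1.22) and ccng2 (-1.44) stand far left of their groups' medians.

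Of the D-type cyclins, ccnd1 was by far the most abundant and the only one called. It had 103 FPKM in SU5402 embryos and 208 FPKM in control embryos, so the treated embryos held 49.5% of the control level. In the authors' deposited table its log2 change was -1.01 with a q of 0.000383. The whole-embryo value cannot tell fewer cells that express the gene from less RNA per cell. Its paralog ccnd2a went the other way in value, with 11.9 FPKM in SU5402 embryos against 7.72 FPKM in control embryos, but was not called (q = 0.279 in the authors' deposited table). The third paralog ccnd3 was low, at 1.62 FPKM in SU5402 embryos and 1.87 FPKM in control embryos, and was not called either. The copy ccnd2b, at 0.110 FPKM in SU5402 embryos and 0.0566 FPKM in control embryos, was not tested. Summed over the 4 genes, D-type cyclin transcripts came to 117 FPKM in SU5402 embryos and 218 FPKM in control embryos. The share of ccnd1 in that sum was 88.4% in SU5402 embryos and 95.6% in control embryos, and that of ccnd2a was 10.2% in SU5402 embryos and 3.54% in control embryos.

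The E-type pair was uneven in both level and change. The cyclin gene ccne2 fell to 8.81 FPKM in SU5402 embryos, against 20.5 FPKM in control embryos, or 43.0% of the control level. Its log2 change was -1.22 with a q of 0.000383 in the authors' deposited table. Its paralog ccne1, the second most abundant cyclin of those measured, had 803 FPKM in SU5402 embryos and 717 FPKM in control embryos and was not called (q = 0.677 in the authors' deposited table). Because ccne1 was 91.1 times as abundant as ccne2 in SU5402 embryos and 35.0 times in control embryos, the fall of ccne2 left the summed E-type value at 811 FPKM in SU5402 embryos against 738 FPKM in control embryos. In that sum ccne2 made up 1.09% in SU5402 embryos and 2.78% in control embryos. Between ccnd1 and ccne2 the ratio of levels was 11.7 in SU5402 embryos and 10.2 in control embryos.

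**Figure D2:**
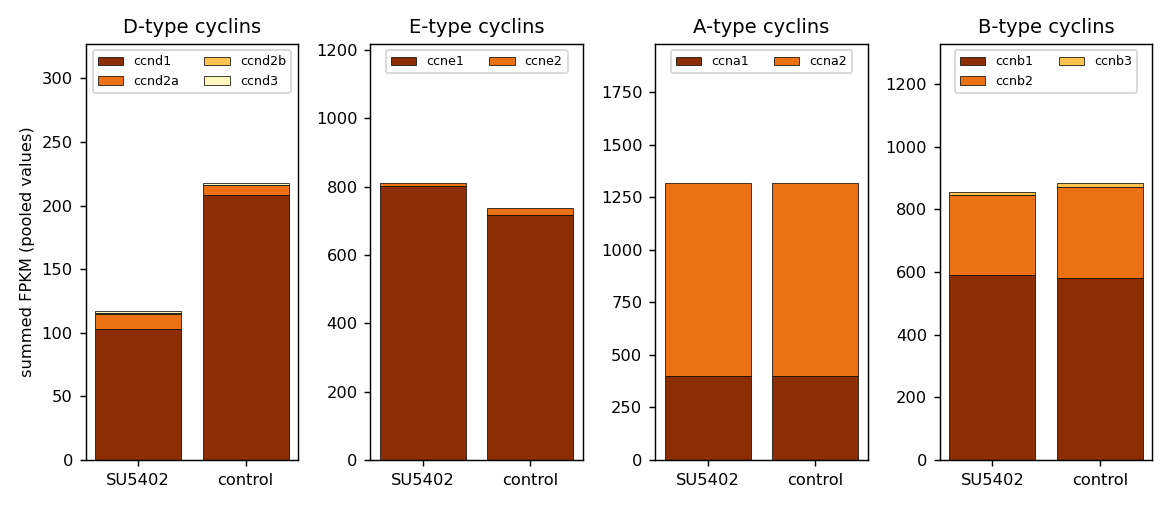
Summed FPKM of the D-, E-, A- and B-type cyclin genes (linear axis from 0, a scale of its own in each panel) in SU5402 and control embryos, with each gene as a stacked part. Bars are pooled values with no replicate error. The D-type sum is 117 FPKM in SU5402 and 218 FPKM in control embryos, while the A-type sum is 1320.0 FPKM in SU5402 and 1318 FPKM in control embryos.

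The authors' p for ccnd1 and ccne2 was 5e-05, the smallest value in their deposited table, which 108 loci share, so these p-values cannot rank them. Adjusting the deposited p-values over all 12757 tested loci gave both genes an adjusted p of 0.00591. Of all tested loci 1.65% passed that stricter reading, 0.651% lower and 0.996% higher. At an authors' p of at most 0.01, 4 members passed, against 4.65% of all tested loci. Neither ccng2, ccnl1a nor ccnt2b passed the adjustment over all tested loci, with adjusted p of 0.223, 0.165 and 0.205 from the authors' p. Among the 845 tested loci with a mean of at least 100 FPKM, 3.43% were called lower and 11.6% higher, and 6 of them, ccnd1 included, had a log2 change as low as that of ccnd1. Over all tested loci, 380 had a change as low as that of ccnd1, 260 as low as that of ccne2 and 179 as low as that of ccng2. The called rises were less extreme, since 2198 of the tested loci had a change as high as that of ccnt2b and 1774 as high as that of ccnl1a. Among the 845 loci with a mean of at least 100 FPKM, 166 had a change as high as that of ccnt2b.

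None of the 6 tested mitotic cyclin genes was called or had an authors' p under 0.05. Of all tested loci 5.64% were called, so the lack of a call among 6 genes does not set this group apart. The 3 most abundant had nearly equal values in both conditions. The A-type cyclin gene ccna2, the most abundant member, had 918 FPKM in SU5402 embryos and 920.1 FPKM in control embryos. The other A-type gene ccna1 had 402 FPKM in SU5402 embryos and 398 FPKM in control embryos. Among B-type cyclins, the activators of Cdk1 at mitosis, ccnb1 had 591 FPKM in SU5402 embryos and 581 FPKM in control embryos. Its paralog ccnb2 had 253 FPKM in SU5402 embryos and 289 FPKM in control embryos (log2 change -0.19, q = 0.415 in the authors' deposited table). The 2 low members were ccnb3, at 11.3 FPKM in SU5402 and 14.6 FPKM in control embryos, and ccnf. Cyclin F gene ccnf had 2.73 FPKM in SU5402 embryos and 3.35 FPKM in control embryos, and encodes an F-box protein of a ubiquitin ligase rather than a CDK activator. Log2 changes in this group ran from -0.36 to 0.024, with a median of -0.098.

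Set against the mitotic cyclins, the change of ccnd1 lay 0.65 below the lowest of them on the log2 scale and that of ccne2 lay 0.85 below it. The other tested D- and E-type genes did not share this: ccne1, ccnd2a and ccnd3 had log2 changes of 0.16, 0.62 and -0.21. Genes are not replicates of a condition, so no test of the difference between the groups was made. The A- and B-type cyclins summed to 2175 FPKM in SU5402 embryos and 2203 FPKM in control embryos. Relative to that sum, ccnd1 stood at 4.74% in SU5402 embryos and 9.46% in control embryos, and ccne2 at 0.405% in SU5402 embryos and 0.931% in control embryos. The order of the 6 most abundant D-, E-, A- and B-type genes was the same in both conditions, from ccna2 through ccne1, ccnb1, ccna1 and ccnb2 to ccnd1, though no spread over samples is known for any of these levels.

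**Figure D3:**
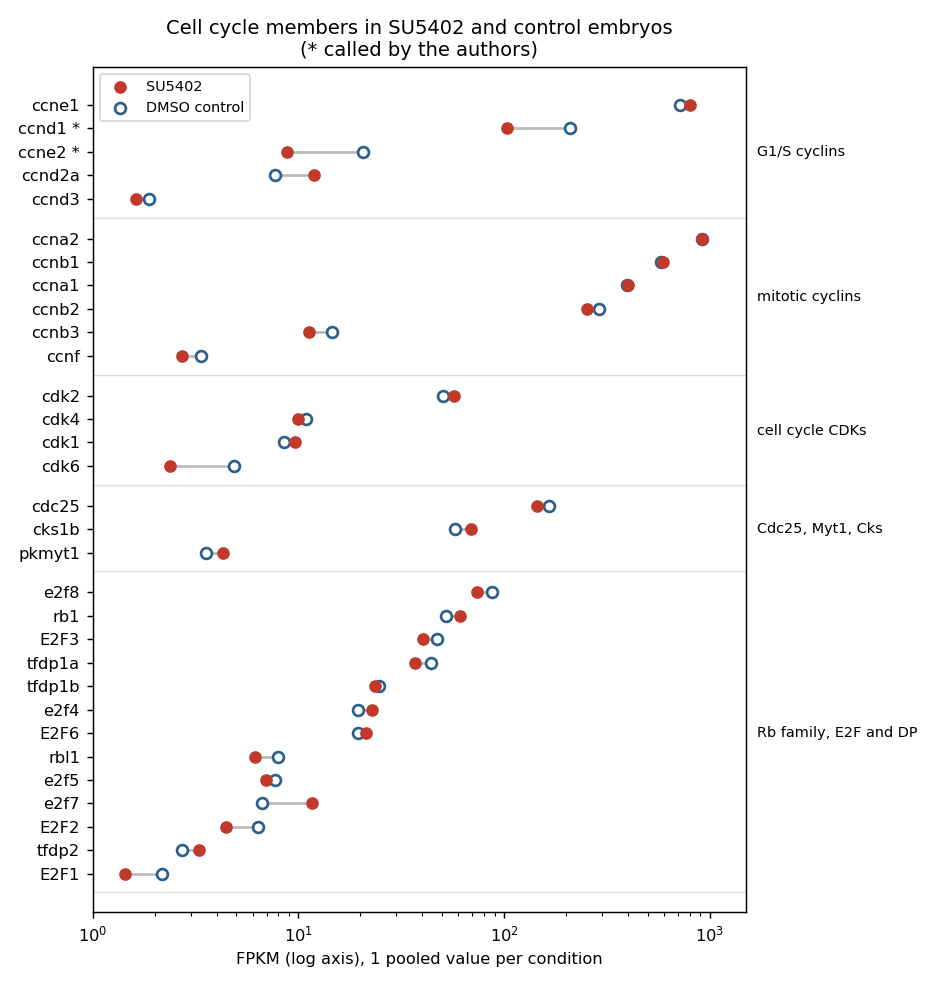
FPKM (log axis) of the tested D- and E-type cyclins, mitotic cyclins, cell cycle CDKs, Cdc25, Myt1, Cks, Rb, E2F and DP genes in SU5402 embryos (filled red) and DMSO control embryos (open blue), 1 pooled value each, joined by a line. An asterisk marks the genes among these that the authors called, ccnd1 (103 FPKM in SU5402, 208 FPKM in control) and ccne2 (8.81 FPKM in SU5402, 20.5 FPKM in control). The pairs of ccna2, ccnb1 and ccna1 lie almost on top of each other.

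None of the 4 tested cell cycle CDK genes was called, beside 5.64% of all tested loci. The value of cdk6 was nonetheless 48.8% of the control level. Transcripts of cdk6, which encodes a partner of D-type cyclins, stood at 2.37 FPKM in SU5402 embryos and 4.85 FPKM in control embryos (p = 0.0208, q = 0.0645 in the authors' deposited table). Its log2 change of -1.03 was about that of ccnd1, at a far lower level. With 1 FPKM added to each value the change was -0.80 for cdk6 and -1.01 for ccnd1. Adjusted over all tested loci, the authors' p of cdk6 became 0.313. The other D-type partner, cdk4, had 9.94 FPKM in SU5402 embryos and 10.9 FPKM in control embryos. The E- and A-type partner cdk2 had 57.3 FPKM in SU5402 embryos and 50.8 FPKM in control embryos. Transcripts of the mitotic kinase cdk1 were listed at 9.59 FPKM in SU5402 embryos and 8.56 FPKM in control embryos, far below ccna2, ccnb1, ccna1 and ccnb2. In SU5402 embryos ccna2 was 95.7 times as abundant as cdk1, and in control embryos 107 times.

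The kinase that activates CDKs consists of Cdk7, cyclin H and Mat1. None of its 3 genes was called, beside 5.64% of all tested loci. The member cdk7 had 11.3 FPKM in SU5402 embryos and 9.34 FPKM in control embryos. Its cyclin ccnh had 27.3 FPKM in SU5402 embryos and 23.0 FPKM in control embryos, but shares its assembled region with the tested rows rasa1a and BX470189.1. The assembly factor mnat1, outside the member list, had 11.2 FPKM in SU5402 embryos and 8.30 FPKM in control embryos.

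None of the 3 tested members cdc25, pkmyt1 and cks1b, which act on CDK phosphorylation or bind CDKs, was called, beside 5.64% of all tested loci. The phosphatase gene listed as cdc25, a synonym of cdc25b in RefSeq, removes the inhibitory phosphates from CDKs. It had 144 FPKM in SU5402 embryos and 165 FPKM in control embryos (q = 0.420 in the authors' deposited table). The opposing kinase gene pkmyt1 had 4.29 FPKM in SU5402 embryos and 3.54 FPKM in control embryos. The gene cks1b, for a small CDK-binding subunit, had 69.2 FPKM in SU5402 embryos and 57.5 FPKM in control embryos and shares its region with znf687b. The members cdc25d and cks2 were under 1 FPKM in both conditions and were not tested.

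Of 14 Rb, E2F and DP members, 13 were tested and none was called, beside 5.64% of all tested loci. The 13 had a median log2 change of -0.14, with 8 of them below 0. The gene rb1, for the Rb protein itself, had 61.3 FPKM in SU5402 embryos and 52.0 FPKM in control embryos, and its relative rbl1 (p107) had 6.16 FPKM in SU5402 embryos and 7.96 FPKM in control embryos. The largest log2 change of the 13, at 0.81, was in e2f7, an atypical repressor of E2F targets, with 11.6 FPKM in SU5402 embryos against 6.66 FPKM in control embryos (p = 0.0355, q = 0.0984 in the authors' deposited table). The other atypical repressor e2f8, the most abundant E2F gene, had 73.6 FPKM in SU5402 embryos and 87.3 FPKM in control embryos. The activator class of E2F genes was lower in value in SU5402 embryos for each of its 3 tested genes, without a call. The authors' p was 0.184 for E2F1, 0.0733 for E2F2 and 0.264 for E2F3, so this direction cannot be judged. Names in capitals, E2F6 among them, are printed as the authors deposited them. E2F1 had 1.44 FPKM in SU5402 embryos and 2.17 FPKM in control embryos. E2F2 had 4.44 FPKM in SU5402 embryos and 6.34 FPKM in control embryos (q = 0.172 in the authors' deposited table). E2F3 had 40.2 FPKM in SU5402 embryos and 47.2 FPKM in control embryos. The factors that chiefly repress with Rb relatives were e2f4, at 22.9 FPKM in SU5402 and 19.6 FPKM in control embryos, and e2f5, at 6.95 FPKM in SU5402 and 7.66 FPKM in control embryos. The remaining repressor E2F6 had 21.3 FPKM in SU5402 embryos and 19.6 FPKM in control embryos. The DP partners tfdp1a, tfdp1b and tfdp2, which most E2F proteins need to bind DNA, had log2 changes of -0.26, -0.057 and 0.28. The member rbl2 (p130), at 1.45 FPKM in SU5402 embryos and 0.899 FPKM in control embryos, was not tested.

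**Figure D4:**
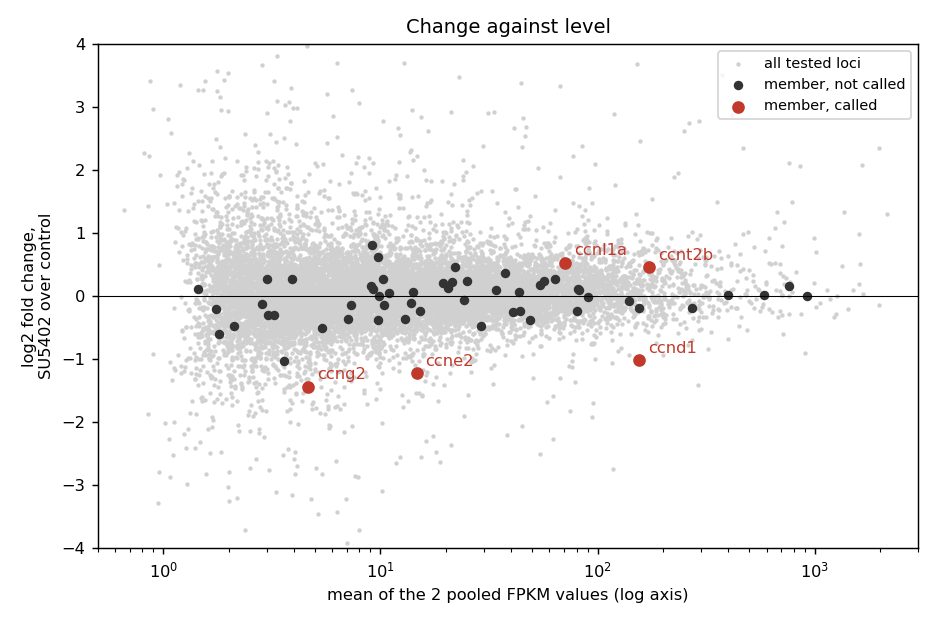
Log2 fold change of SU5402 over control against the mean of both pooled FPKM values (log axis) for all tested loci (grey) and the tested members (dark, red where called); 72 loci beyond the axis limits are not drawn. At a mean of 100 FPKM or more, 6 of 845 loci lie as low as ccnd1, itself included, while ccnl1a and ccnt2b lie at the upper edge of the members of like level.

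Cyclins and CDKs that act on RNA polymerase II and splicing gave the 2 called rises. Neither passed the adjustment over all tested loci (adjusted p of 0.205 for ccnt2b and 0.165 for ccnl1a, from the authors' p). Of all tested loci 3.58% were called higher, and of those with a mean of at least 100 FPKM, as ccnt2b had, 11.6%. In the authors' deposited table ccnt2b rose 1.37-fold, to 199.8 FPKM in SU5402 embryos against 146 FPKM in control embryos (q = 0.0334). It encodes cyclin T2, which with Cdk9 forms the elongation factor P-TEFb. The gene ccnl1a, for a cyclin L that binds Cdk11 and takes part in splicing, rose 1.45-fold, to 83.8 FPKM in SU5402 embryos against 58.0 FPKM in control embryos (q = 0.0243 in the authors' deposited table). Their paralogs had no such difference in value: ccnt2a had 13.3 FPKM in SU5402 and 14.5 FPKM in control embryos. The paralog ccnl1b had 89.9 FPKM in SU5402 embryos and 91.2 FPKM in control embryos. The kinase partners cdk9 (84.2 FPKM in SU5402 and 78.3 FPKM in control embryos) and cdk11b (42.4 FPKM in SU5402 and 55.3 FPKM in control embryos) were not called. Cyclin C gene ccnc, of the Mediator kinase module, was lower in value at 24.3 FPKM in SU5402 embryos against 33.7 FPKM in control embryos (p = 0.0213, q = 0.0657 in the authors' deposited table), while its partner cdk8 had 84.8 FPKM in SU5402 embryos and 79.7 FPKM in control embryos. Over the 13 tested members of this group, 9 lay above 0 and the median log2 change was 0.060.

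Among the other cyclin and CDK members, ccng2 was the 1 call of 8 tested, beside 5.64% of all tested loci called. This atypical cyclin, linked to cell cycle arrest in mammalian cells, fell to 2.50 FPKM in SU5402 embryos against 6.77 FPKM in control embryos (log2 change -1.44, q = 0.0387 in the authors' deposited table). Its assembled region is the same as that of TAF1C, which had 4.45 FPKM in SU5402 embryos and 4.96 FPKM in control embryos, so reads may be divided between them. The adjacent cyclin I gene ccni had 2.73 FPKM in SU5402 embryos and 2.98 FPKM in control embryos. The relative that the rule leaves out, ccng1, was far more abundant, at 492 FPKM in SU5402 embryos and 529 FPKM in control embryos, and was not called. Of the cyclin genes that the name pattern misses, CCNJL had 39.3 FPKM in SU5402 embryos and 50.1 FPKM in control embryos, with no call. CCNYL1 had 35.9 FPKM in SU5402 embryos and 36.8 FPKM in control embryos, also with no call, and ccny was not tested. The gene ccni2 had 1.77 FPKM in SU5402 embryos and 2.46 FPKM in control embryos with no call. In the group of CDK-binding and Cdk5 activator genes, 4 of 8 were tested and none was called. The most abundant, cdk2ap2, had 137 FPKM in SU5402 embryos and 144 FPKM in control embryos. Transcripts of cdk5rap3 stood at 25.4 FPKM in SU5402 embryos and 18.5 FPKM in control embryos (p = 0.0544 in the authors' deposited table).

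On the genome build Zv9, ccnd1 lay on chromosome 7 from 54575139 to 54584681, ccne2 on chromosome 16 from 43241774 to 43250825 and ccng2 on chromosome 21 from 5787528 to 5818644. The called rises were ccnl1a on chromosome 18 from 39852413 to 39866799 and ccnt2b on chromosome 22 from 12272620 to 12287262. These are spans of assembled loci, and exon positions were not used here. No other row overlapped the regions of ccnd1, ccne2, ccnl1a or ccnt2b, while 15 of the 58 tested members overlapped another row and 5 overlapped a row that was itself tested.

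Rows within 75 kb of the 5 called members were then compared with them. On one side of ccnd1 lay oraov1 and the FGF ligand genes fgf19, fgf4 and fgf3. The neighbour fgf3, 60.9 kb from ccnd1, was called in the opposite direction, at 6.15 FPKM in SU5402 embryos against 3.10 FPKM in control embryos (q = 0.0289 in the authors' deposited table), a call that did not pass the adjustment over all tested loci (adjusted p = 0.191 from the authors' p). Between them, oraov1 had 15.0 FPKM in SU5402 embryos and 13.5 FPKM in control embryos and was not called. The genes fgf4 (0.571 FPKM in SU5402 and 1.07 FPKM in control embryos) and fgf19 (0.177 FPKM in SU5402 and 0.235 FPKM in control embryos) were not tested. Beside ccne2, the nearest tested rows were both named tp53inp1, a p53-inducible gene, at 14.4 and 8.39 FPKM in SU5402 embryos against 9.76 and 2.61 FPKM in control embryos. Neither was called, and both rows have the same region, so their reads cannot be assigned with certainty. No neighbour of ccng2, ccnl1a or ccnt2b within 75 kb was called. Only fgf3 was called among all these neighbours, beside 5.64% of all tested loci, so its call does not set the ccnd1 region apart.

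**Figure D5:**
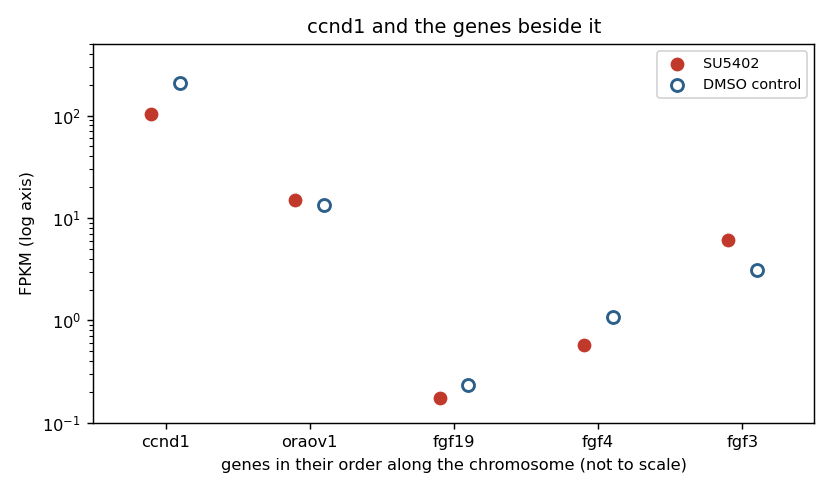
FPKM (log axis) of ccnd1 and the 4 genes within 75 kb of it, in their order on the chromosome, in SU5402 embryos (filled red) and DMSO control embryos (open blue), 1 pooled value each. The SU5402 value is below control at ccnd1 (103 against 208 FPKM) and above it at fgf3 (6.15 against 3.10 FPKM).

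Genes outside the member list that control cyclins and CDKs were counted in 5 lists, to be read against the 5.64% of all tested loci called (3.58% higher and 2.06% lower). Of 4 tested genes named as CDK inhibitors or their relatives, the authors' deposited table called cdkn1a, for the inhibitor p21, higher (12.9 FPKM in SU5402 and 5.67 FPKM in control embryos, q = 0.00929), and none lower. The inhibitor gene cdkn1c had 26.0 FPKM in SU5402 embryos and 33.6 FPKM in control embryos with no call. Of 11 tested checkpoint and upstream kinases and their regulators, plk1 was called lower (76.6 FPKM in SU5402 and 119.5 FPKM in control embryos) and wee2, an oocyte relative of wee1, higher (233 FPKM in SU5402 and 158 FPKM in control embryos). Of these 3 calls, only that of plk1 passed the adjustment over all tested loci (adjusted p = 0.0176 from the authors' p).

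The anaphase-promoting complex marks mitotic cyclins for destruction. Its list, which also holds activators, ubiquitin-conjugating enzymes and an inhibitor, had 18 tested genes and 0 calls, with a median log2 change of -0.033. The activator gene cdc20, the most abundant, had 246 FPKM in SU5402 embryos and 354 FPKM in control embryos (p = 0.0301, q = 0.0864 in the authors' deposited table). The inhibitor gene fbxo5 (Emi1) had 95.0 FPKM in SU5402 embryos and 111 FPKM in control embryos. The list of SCF ubiquitin ligase and cyclin turnover genes had 9 tested genes, 0 calls and a median of -0.12. Its most abundant genes were skp1 (187 FPKM in SU5402 and 204 FPKM in control embryos) and cul3a (65.9 FPKM in SU5402 and 61.1 FPKM in control embryos). The Myb, Myc, FoxM1 and MuvB list, of transcription regulators of cell cycle genes, had 10 tested genes, 0 calls and a median of 0.084. Its most abundant genes were max (159 FPKM in SU5402 and 157 FPKM in control embryos) and mych (92.0 FPKM in SU5402 and 94.2 FPKM in control embryos). In the last 2 lists no gene had an authors' p under 0.05.

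The 12 members that were not tested reached at most 1.45 FPKM, and 3 of them, CDK18, cdk5r2a and cdk5r2b, were listed at 0 in both conditions. Besides those named above they were cdk15, cdk19, cdk20, CDK5RAP1 and cdk5r1b. The remaining tested members, none of them called, were ccnt1, ccnk, cdk10, cdk12, cdk13, cdk5, CDK14, both cdk16 loci, CCNJ, CDK5RAP2 and cdk5r1a. Their log2 changes lay between -0.38 at the cdk16 locus on chromosome 8 and 0.36 at ccnk, which had 42.2 FPKM in SU5402 embryos and 32.9 FPKM in control embryos.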

How the data were processed

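RNA-seq of 2 SU5402 and 2 control samples was used as 1 table of the authors' comparison. The genome build was Zv9 (danRer7) and TopHat2, Cufflinks, Cuffdiff and Picard were used, per the submitters' processing notes. No version or setting of these tools was known. Per the file headers, the authors deposited 1 FPKM value per condition, a log2 fold change, a test score (not used), a p-value and a q-value. FPKM is relative to the rest of each library, so it does not show the amount of RNA in an embryo. The log2 change was within 0.001 of the FPKM ratio for 12714 of 12715 tested loci with a finite ratio. The deposited q-values are smaller than a Benjamini-Hochberg adjustment over the tested loci, so that adjustment was added as a stricter reading. No test of replicates was run. The members, gene lists and rules were chosen with earlier results of these data known.

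Named in the text are called members, tested members of the cyclin, cell cycle CDK, Cdc25 and Rb/E2F groups, the 3 largest rises, falls and levels among other members, and called genes and the 2 most abundant of other lists. Genes given outside that rule were chosen after their values were seen, as was the group of CDK-binding genes. They were partner kinases, paralogs, neighbours, members not tested or named as the rest, mnat1, ccng1, CCNJL, CCNYL1 and ccny. All 70 members matched a symbol or synonym in RefSeq (GRCz12tu), used for names only. Starts in the file include 0, so 1 was added. Planned promoter and protein motif descriptions were not made. Python 3.11.15 and pandas 2.3.3 were used, and the adjustment was tested on simulated p-values.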

Additional observations from a re-analysis of the deposited data

How the results depend on the processing

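No paired analysis was possible because the table holds 1 pooled value per condition, and for the same reason no replicate could be left out. With the adjustment over all tested loci, 2 members were called in place of 5, ccnd1 and ccne2, with 0 higher in place of 2. Of the unadjusted p-values of the authors, 3 higher members had one of at most 0.05. At an authors' p of at most 0.01, 4 of the 58 tested members passed, against 4.65% of all tested loci. All 5 called members had at least 5 FPKM in the higher condition, so a filter at that level could not remove a call. Group medians were compared with a tolerance of 0.1 on the log2 scale, and 7 of 38 alternative values moved further, all in groups of at most 8 members. At 5 FPKM or more the median of D- and E-type cyclins was -0.43 in place of -0.21, their difference from the mitotic cyclins -0.42 in place of -0.11, the cell cycle CDKs 0.16 in place of 0.015 and the Cdc25, Myt1 and Cks group 0.037 in place of 0.27. With all members above 0 in both conditions the D- and E-type median was -0.022, the Cdc25 group -0.19 and the CDK-binding group 0.30 in place of 0.0998. Subtracting the median of all tested loci (0.044) turned ccnb1 to -0.020 and ccna1 to -0.030, neither of them called. For the 5 called members neither setting could change the direction. Adding 1 FPKM to both values keeps the sign, and each of the 5 changes was larger than 0.044 in size. With 1 FPKM added, the log2 change of ccng2 was -1.15 in place of -1.44. Without depth or replicate values, differences among uncalled members cannot be judged.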
